A study of Mus musculus with 4 samples.

Results

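Molecular chaperones of the cytosol and the mitochondria were examined in Py-4-1 cells, a mouse line derived from a hemangioendothelioma, a tumour of endothelial cells. The set held 49 listed genes of the Hsp90, Hsp70, Hsp40, small heat shock protein, CCT, prefoldin and mitochondrial classes, with 2 heat shock factors. Of these, 45 had at least 1 probe set that the array's annotation assigned to that gene alone, out of 12393 genes measured in this way. Hsp90ab1, Pfdn4 and Hsf1 had none, and Ptges3 was covered only by probe sets shared with a pseudogene. A gene with more than 1 probe set was represented by the brightest, by mean log2 value.

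The study compared clones of Py-4-1 cells carrying the pcDNA plasmid (2 control clones) with clones carrying pcDNA/Prox1, labelled as stably expressing the lymphatic transcription factor Prox1 (2 clones), and its title concerns invasion by kaposiform hemangioendothelioma. All 4 clones had been transfected and came from 1 cell line, and each clone was grown in 1 dish and measured on 1 array. Variation of clone, dish, RNA preparation and array cannot be told apart within a group. Values of a pair of clones are given with clone 1 first. Values are MAS5 intensities, a linear brightness per probe set, and changes are differences in log2(intensity + 47.2) between the Prox1-labelled and the control clones, tested with limma over 11656 probe sets. Of the 45 measured members, 41 passed the filter on low values. In bulk RNA, fewer cells with a transcript and less transcript per cell cannot be told apart.

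Chaperones bind unfolded or partly folded proteins and keep them from aggregating. Hsp70 takes up exposed hydrophobic stretches under the control of Hsp40 partners, which speed ATP hydrolysis, and of nucleotide exchange factors, which release the client. Hsp90 acts later, on nearly folded clients such as kinases and steroid receptors, with a set of co-chaperones that load and time it. CCT, a ring of related subunits fed by prefoldin, folds actin and tubulin, and the Hsp60 and Hsp10 pair does similar work in the mitochondrial matrix. Many of these genes are induced together by the heat shock factor Hsf1, which binds heat shock elements, arrays of inverted nGAAn units.

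The 2 mitochondrial chaperonin genes share a stretch with a run of such units, which is shown because both genes read lower in both Prox1-labelled clones. The stretches of 3 other genes are shown for comparison, Hsph1 and Fkbp4 among the lowest relative to the controls and Dnajb6 near 0. Hspd1, which encodes Hsp60, and Hspe1, which encodes Hsp10, lie head to head on mouse chromosome 1, and their RefSeq start sites (GRCm38.p6) are 216 bases apart. Hspd1 has a further RefSeq start upstream, past the start of Hspe1. The stretch between them, chr1:55088029-55088106, is given on the strand of each gene, followed by the stretches of Dnajb6 (chr5:29735822-29735894, plus strand), Hsph1 (chr5:149636337-149636399, minus strand) and Fkbp4 (chr6:128438770-128438837, minus strand). All run 5′ to 3′ before a RefSeq start, with the matched units in capitals, which in the shared stretch span overlapping matches.
Hspe1: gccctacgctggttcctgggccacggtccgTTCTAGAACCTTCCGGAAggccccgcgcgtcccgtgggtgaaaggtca
Hspd1: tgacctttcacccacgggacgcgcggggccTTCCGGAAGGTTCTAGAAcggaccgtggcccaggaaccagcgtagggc
Dnajb6: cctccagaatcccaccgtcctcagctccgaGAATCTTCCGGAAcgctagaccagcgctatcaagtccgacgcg
Hsph1: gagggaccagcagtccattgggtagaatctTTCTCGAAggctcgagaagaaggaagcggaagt
Fkbp4: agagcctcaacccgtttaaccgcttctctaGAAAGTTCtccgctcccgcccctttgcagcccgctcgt

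A run of 3 units (GAA, any 2 bases, TTC, any 2 bases, GAA, or its reverse complement on the opposite strand) was searched in the 250 bases before each RefSeq start. It was found for Hspd1, Hspe1 and Dnajb6 among 40 members with a window in the table (7.5%), and for 0.514% of all 27025 symbols. In Hspe1 the matched stretch lay 89 to 72 bases before the start, and in Hspd1 144 to 127. The shorter run of 2 units, GAANNTTC or TTCNNGAA, each its own reverse complement and both contained in the longer motif, was found for 14 of 40 members (35%) and for 14.5% of all symbols. The 14 measured members with the shorter run had a median log2 change of -0.068, and the 24 without had -0.21. For the longer run the order was the opposite, with -0.55 over 3 genes that hold it, of which Hspd1 and Hspe1 share 1 stretch, and -0.11 over 35 without. A match describes the letters and not binding.

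The probe set of Prox1 itself showed no rise, but it read near the floor of the array. It read 52.1 and 60.5 in the controls against 62.4 and 44.3 in the Prox1-labelled clones, with a log2 change of -0.046 ± 0.20 (limma without the intensity filter, adjusted p = 0.963). Without control clone 2 it was 0.012 and without Prox1-labelled clone 2 it was 0.083. The highest of 27 Bacillus control probe sets read 45.3 and 101 in the controls and 88.4 and 97.5 in the Prox1-labelled clones. Prox1 lay above that level in control clone 1 alone, so these values cannot show whether Prox1 was raised. The position of this probe set relative to the plasmid's insert is also unknown here, so the clones are called Prox1-labelled. All 11 endothelial markers measured had positive changes (median 0.32), where 50.9% of all genes tested did. Of the 11, Cldn5 and Erg were dim and lay below the filter. The groups overlapped in 7, and both Prox1-labelled clones read above both controls in 4, against 23.2% of genes tested. In limma 1 (Tek) was higher at an unadjusted p under 0.05, where 8.22% of genes tested were. The summed intensity of the 11 markers ran from 35900 to 45945 in control clones and from 46919 to 49452 in Prox1-labelled clones. Tek, an angiopoietin receptor, gave 0.92 (limma adjusted p = 0.166) and Tie1, its related receptor, gave 0.59 (adjusted p = 0.388), which was 0.16 on leaving out control clone 1 and 1.02 on leaving out control clone 2. Of the defining markers of other cell types that were measured, 3 of 7 of fibroblasts, 5 of 6 of epithelium and 3 of 6 of leukocytes lay at or below the highest of 27 Bacillus control probe sets in every clone. Cd68, a macrophage marker, read 847 and 969.6 in the controls against 708 and 806 in the Prox1-labelled clones, and Csf1r, the receptor of a macrophage growth factor, read 240 and 443 against 375 and 335. The summed intensities of each list in the controls and the Prox1-labelled clones were 421 to 574 and 423 to 475 for fibroblasts, 241 to 245 and 257 to 369.6 for epithelium, and 1223 to 1652 and 1284 to 1406 for leukocytes. The part of any of these markers in the chaperone values was not tested. The ratio of the 3′ to the 5′ probe set of Gapdh, a sign of RNA integrity, lay between 0.759 and 0.800 in the 4 arrays, and the groups overlapped.

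Chaperone genes were more often lower than higher in the Prox1-labelled clones. Of the 45, 41 were tested, and 0 passed the threshold of an adjusted p under 0.05 in limma. Over all probe sets 0.103% passed, and over genes 0.115% in either direction and 0.0144% lower. Of the 45 genes, 33 had a negative and 12 a positive log2 change (73.3% negative, where 49.1% of the 6949 genes tested were negative and 50.9% positive), with a median of -0.16 beside 0.0072 over all genes tested. Over all 12393 genes measured, tested or not, 50.4% were negative. At an unadjusted p under 0.05, 9 were lower and 1 was higher, where 6.13% and 8.22% of all genes tested were. The 9 include Hspa4l, which passed the filter on low values through the control clones alone and so had to be higher there. Both Prox1-labelled clones read below both control clones for 18 of 45 (40%), against 23.2% of genes tested and 21.3% of the 12393 measured. The 18 also include Hspa4l. Both Prox1-labelled clones read above both controls for 4 of 45 (Bag1, Dnajc2, Cct2 and the dim Hspa1b), against 23.2% of genes tested and 2499 of the 12393 measured. Chaperone genes are bright, with 35 above the 75th percentile of the array in at least 2 arrays, and among all 3807 genes that bright the share below both controls was 25.5%, the share above both 22.8%, and 50.9% were negative and 49.1% positive. These shares describe the set, and no test of it was made.

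Control clone 1 held the highest level of 24 of the 45 genes, where it did so for 1863 of the 6949 genes tested. The part of this clone in the results was not tested beyond leaving it out. The summed intensity of the 45 genes was 144362 and 122059 in the controls against 110842 and 112298 in the Prox1-labelled clones. The median of control clone 2 minus control clone 1 was -0.13 on the log2 scale, and that of Prox1-labelled clone 2 minus clone 1 was 0.0070. Over all genes tested those medians were 0.064 and -0.018. Between the control clones Bag3, Dnajb4 and Hspe1 differed at least 2-fold, and 0 members did between the Prox1-labelled clones. Of all 11656 probe sets tested, 355 differed that much between the control clones and 60 between the Prox1-labelled clones. Without control clone 1 the median over the 45 genes was -0.089 with 28 negative, and without control clone 2 it was -0.22 with 32 negative.

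**Figure D1:**
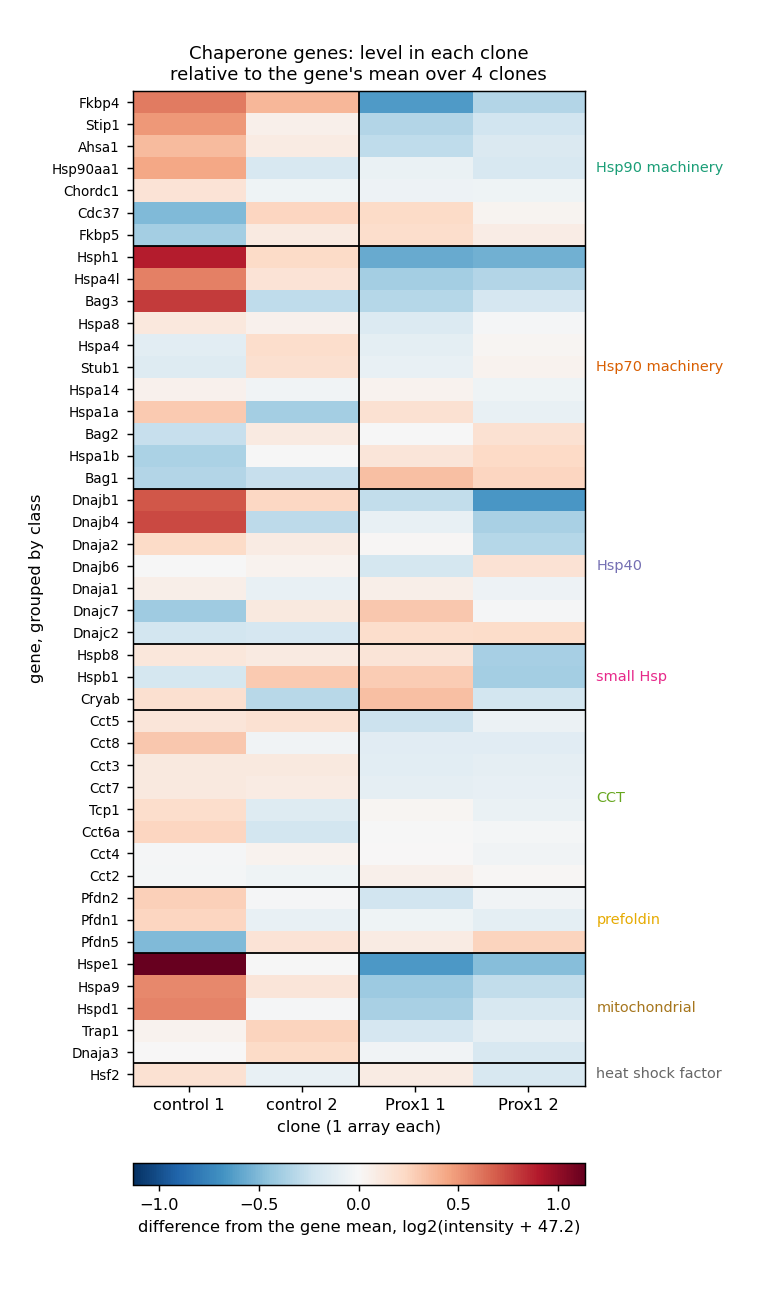
Level of each of the 45 chaperone genes in each clone as the difference from the gene's mean over the 4 clones, in log2(intensity + 47.2), with 1 column per clone and genes grouped by class. Red is above and blue below the gene's mean. Control clone 1 is dark red for Hspe1, Hsph1, Bag3, Dnajb4 and Dnajb1, and the CCT rows are pale throughout.

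By their brightest probe sets, all 5 mitochondrial chaperone genes had a negative change, with a median of -0.55, and in all 5 both Prox1-labelled clones lay below both control clones. Of all genes tested 49.1% were negative and 23.2% lay below both controls. 0 of the 5 passed the threshold in limma (smallest adjusted p = 0.188), and 3 were lower at an unadjusted p under 0.05, as were 6.13% of genes tested. Hspe1 (Hsp10, the lid of the Hsp60 chamber) read 8088 and 3651 in the controls against 2312 and 2607 in the Prox1-labelled clones. The groups did not overlap, and the gap between the control clones was wider than the gap between control clone 2 and either Prox1-labelled clone. Its log2 change was -1.13 ± 0.32 (limma adjusted p = 0.188, unadjusted p = 0.00622), -0.56 on leaving out control clone 1 and -1.70 on leaving out control clone 2. The probe set carries the suffix that allows matches to other transcripts, and the other, dimmer probe set of Hspe1 gave -0.56 ± 0.26 (adjusted p = 0.368).

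Hspd1 (Hsp60, the chamber itself) read 7863 and 5274 in the controls against 4116 and 4695 in the Prox1-labelled clones. The clones stood in the same order as for Hspe1, with control clone 1 highest and Prox1-labelled clone 1 lowest. Its log2 change was -0.55 ± 0.22 (limma adjusted p = 0.293), which became -0.26 when control clone 1 was left out and -0.83 when control clone 2 was. Hspa9, the mitochondrial Hsp70 that pulls in and folds imported proteins, read 4863 and 3647 against 2481 and 2723. Its change was -0.69 ± 0.20 (adjusted p = 0.191), and its other tested probe sets gave -0.57 and -0.43, so that 3 of 3 tested probe sets pointed the same way. Trap1, the mitochondrial Hsp90, gave -0.29 ± 0.19 (adjusted p = 0.529), and Dnaja3, the mitochondrial Hsp40, gave -0.22 ± 0.20 (adjusted p = 0.667). In these 2 genes control clone 2 was the highest, and their dimmer probe sets gave -0.070 and -0.058 with overlapping groups.

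Of 17 other genes of mitochondrial protein folding and degradation measured (19 listed), 11 were negative (49.1% over all genes tested), with a median of -0.12. In limma 0 passed the threshold, and 2 were lower at an unadjusted p under 0.05, as were 6.13% of genes tested. Lonp1, the matrix protease, read 2656 and 1963 in the controls against 1267 and 1268 in the Prox1-labelled clones (log2 change -0.83 ± 0.20, limma adjusted p = 0.165). Grpel2, a nucleotide exchange factor for the mitochondrial Hsp70, gave -0.59 ± 0.19 (adjusted p = 0.223).

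In the Hsp70 machinery the exchange factor Hsph1 (Hsp110, a large Hsp70 relative) had the most negative change. It read 9584 and 6000.04 in the controls against 3447 and 3517 in the Prox1-labelled clones. The Prox1-labelled clones were nearly level and both lay under the lower control clone. The log2 change was -1.11 ± 0.23, with a 95% confidence interval from -1.63 to -0.60 (limma adjusted p = 0.128, unadjusted p = 0.000854). Its other probe set read 4653 and 2944 against 1337 and 1405, and with -1.40 ± 0.23 had the smallest adjusted p of the 74 tested probe sets of the members (0.0834). Leaving out control clone 1 gave -0.78 (limma adjusted p = 0.0474, in a fit that called 133 probe sets), and leaving out control clone 2 gave -1.45 (adjusted p = 0.000656, in a fit that called 1150). Leaving out Prox1-labelled clone 1 or 2 gave -1.10 and -1.13, which missed the threshold (limma adjusted p = 0.223 and 0.160). Such fits take the remaining clone of the reduced group to vary like the other group. With the clone number as a replicate block it passed (limma adjusted p = 0.0222, in a fit that called 110 probe sets), although the titles state no pairing of the clones. Hsph1 and Hspe1 were the 2 members lower by at least 2-fold, as were 0.475% of genes tested, and 0 members were higher by that much, as were 0.993%.

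The relatives of Hsph1 differed in size of change. Hspa4l, another Hsp110 family gene, read 293 and 208 in the controls against 128 and 134 in the Prox1-labelled clones, which is dim. Its log2 change was -0.72 ± 0.23 (limma adjusted p = 0.224), and it passed the filter on low values through the control clones alone. Hspa4, the ubiquitous member, gave -0.085 ± 0.19 (adjusted p = 0.884), with intensities of 1709 and 2143 against 1720 and 1887, which overlapped. The 95% confidence interval of Hspa4 ran from -0.52 to 0.35.

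Hspa8, the constitutive Hsp70 of the cytosol and among the brightest members, depended on the probe set. The brightest read 15427 and 14606 in the controls against 12705 and 14015 in the Prox1-labelled clones, a change of -0.17 ± 0.15 (limma adjusted p = 0.672). The next, of nearly the same brightness in the control clones (15579 and 14437), read 7849 and 10090.4 in the Prox1-labelled clones, a change of -0.75 ± 0.18 (adjusted p = 0.154). The 3 tested probe sets shared the sign and not the size, and the suffix of the brighter pair marks probes that can match other transcripts. The stress-inducible Hsp70 genes Hspa1a and Hspa1b were dim and lay below the filter. Hspa1a read 51.4, 14.1, 43.4 and 28.3 in control clones 1 and 2 and Prox1-labelled clones 1 and 2, and Hspa1b read 30.5, 51.9, 62.1 and 68.9. The highest Bacillus control probe set ran from 45.3 to 101 over the 4 arrays, and these 2 nearly identical genes can share signal.

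Among the Hsp70 release factors, Bag1 had a positive change. Bag1, which also binds Bcl2, read 969 and 1021 in the controls against 1569.7 and 1469 in the Prox1-labelled clones. The groups did not overlap, and the log2 change of 0.59 ± 0.18 (limma adjusted p = 0.211) stayed between 0.54 and 0.63 when each clone was left out. In limma it was the 1 member higher at an unadjusted p under 0.05 (higher in 2 of 2 clones). Bag3, a stress-induced factor that joins Hsp70 to autophagy, read 1176 in control clone 1 and 528, 517 and 572 in the other clones. Its change of -0.51 ± 0.32 (adjusted p = 0.511) turned to 0.038 without control clone 1 and was -1.05 without control clone 2. Bag2 gave 0.16, Hspa14 -0.0085 and the ubiquitin ligase gene Stub1, which marks Hsp70 clients for destruction, gave -0.039, each with overlapping groups.

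**Figure D2:**
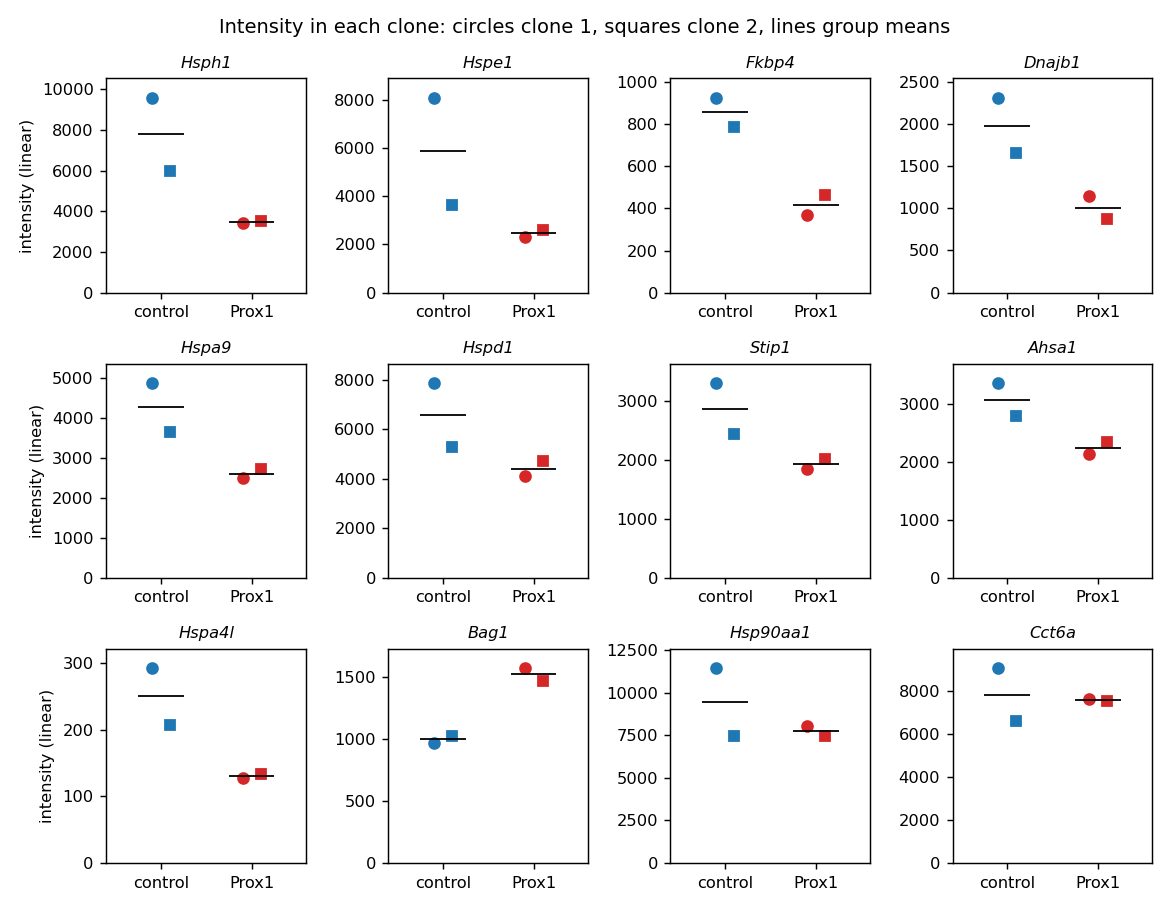
Linear intensity of 12 chaperone genes in each clone, with circles for clone 1, squares for clone 2 and lines for the mean of 2 clones, on axes that start at 0. The groups of Hsph1 are apart (9584 and 6000.04 against 3447 and 3517), those of Bag1 are apart in the other direction, and those of Hsp90aa1 and Cct6a overlap, with control clone 1 high.

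Of the Hsp40 genes, which bring clients to Hsp70, Dnajb1 was the lowest relative to the controls. Dnajb1, the main stress-inducible partner of cytosolic Hsp70, read 2309 and 1653 in the controls against 1145 and 869 in the Prox1-labelled clones. The groups did not overlap, and the log2 change was -0.94 ± 0.23 (limma adjusted p = 0.165), with -0.58 ± 0.20 by its other probe set. Dnajb4, a related gene, read 3389 in control clone 1 and 1611, 1881 and 1537 in the other 3 clones. Its change was -0.45 ± 0.31 (adjusted p = 0.555), or 0.076 without control clone 1, while its dimmer probe set separated the groups, with 1432 and 816 against 585 and 546 (-0.88 ± 0.26, adjusted p = 0.203).

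The class A partners Dnaja1 and Dnaja2 gave 0.016 ± 0.17 (limma adjusted p = 0.980) and -0.31 ± 0.20 (adjusted p = 0.518). Dnaja2 read 1507 and 1377 in the controls against 1300.4 and 1020.2 in the Prox1-labelled clones, which did not overlap. The dimmer tested probe set of Dnaja2 gave -0.24 ± 0.29, with overlapping groups. For Dnaja1 the dimmer tested probe set gave 0.35 ± 0.18 (limma adjusted p = 0.419), with both Prox1-labelled clones above both controls. Dnajc2, which works at the ribosome on emerging chains, read 528 and 534 against 714 and 720.4, a tight separation upwards (0.40 ± 0.19, adjusted p = 0.362). Its other tested probe set gave 0.0022, with overlapping groups. Dnajc7 gave 0.29 ± 0.23, or 0.037 without control clone 1, and Dnajb6, the member with the 3-unit motif outside the mitochondrial pair, gave -0.032 ± 0.19 (adjusted p = 0.962). The class median was -0.032, with 4 negative and 3 positive, and it turned to 0.011 with quantile normalization and to 0.037 without control clone 1.

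Hsp90 itself was represented by Hsp90aa1 alone, which overlapped between the groups, since Hsp90ab1 had no probe set of its own. Of the 7 genes of the class, 3 co-chaperones (Fkbp4, Stip1 and Ahsa1) lay below both controls in both Prox1-labelled clones (42.9%, against 23.2% of genes tested). Hsp90aa1, the stress-responsive Hsp90 of the cytosol, read 11439.9 and 7439.6 in the controls against 8024 and 7449.8 in the Prox1-labelled clones, so that control clone 2 was level with the Prox1-labelled clones. Its change was -0.25 ± 0.21 (limma adjusted p = 0.643), 0.055 on leaving out control clone 1 and -0.56 on leaving out control clone 2, and its 3 tested probe sets ran from -0.25 to 0.028.

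Fkbp4, an immunophilin that helps mature steroid receptors on Hsp90, read 924 and 788 in the controls against 367 and 466 in the Prox1-labelled clones. The groups were well apart, and the log2 change of -0.97 ± 0.21 (limma adjusted p = 0.128, unadjusted p = 0.00116) ranged from -1.12 to -0.81 when each clone was left out. The other probe set of Fkbp4, with intensities of 63.7 and 40.1 against 49.0 and 40.4, was below the filter and gave -0.10, and the mean over both was -0.53. Fkbp5, its counterpart that holds back the glucocorticoid receptor, gave 0.28 ± 0.22 (adjusted p = 0.602), with 840.5 in control clone 1 and 1200.1, 1285 and 1182 in the other 3. The change of Fkbp5 was 0.037 without control clone 1 and 0.53 without control clone 2, and the difference between the 2 immunophilins was not tested.

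Stip1, the adaptor that hands clients from Hsp70 to Hsp90, read 3301 and 2435 against 1843 and 2006 (-0.55 ± 0.20, limma adjusted p = 0.269). Ahsa1, which stimulates the ATPase of Hsp90, read 3357 and 2786 against 2135 and 2334 (-0.45 ± 0.18, adjusted p = 0.314). In both genes the groups did not overlap. Cdc37, the adaptor for kinase clients, gave 0.25 ± 0.25 (adjusted p = 0.701) and -0.12 without control clone 1. Chordc1 gave -0.11 ± 0.18 (adjusted p = 0.839). The class median was -0.25 over 7 genes, -0.12 without control clone 1 and -0.56 without control clone 2.

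**Figure D3:**
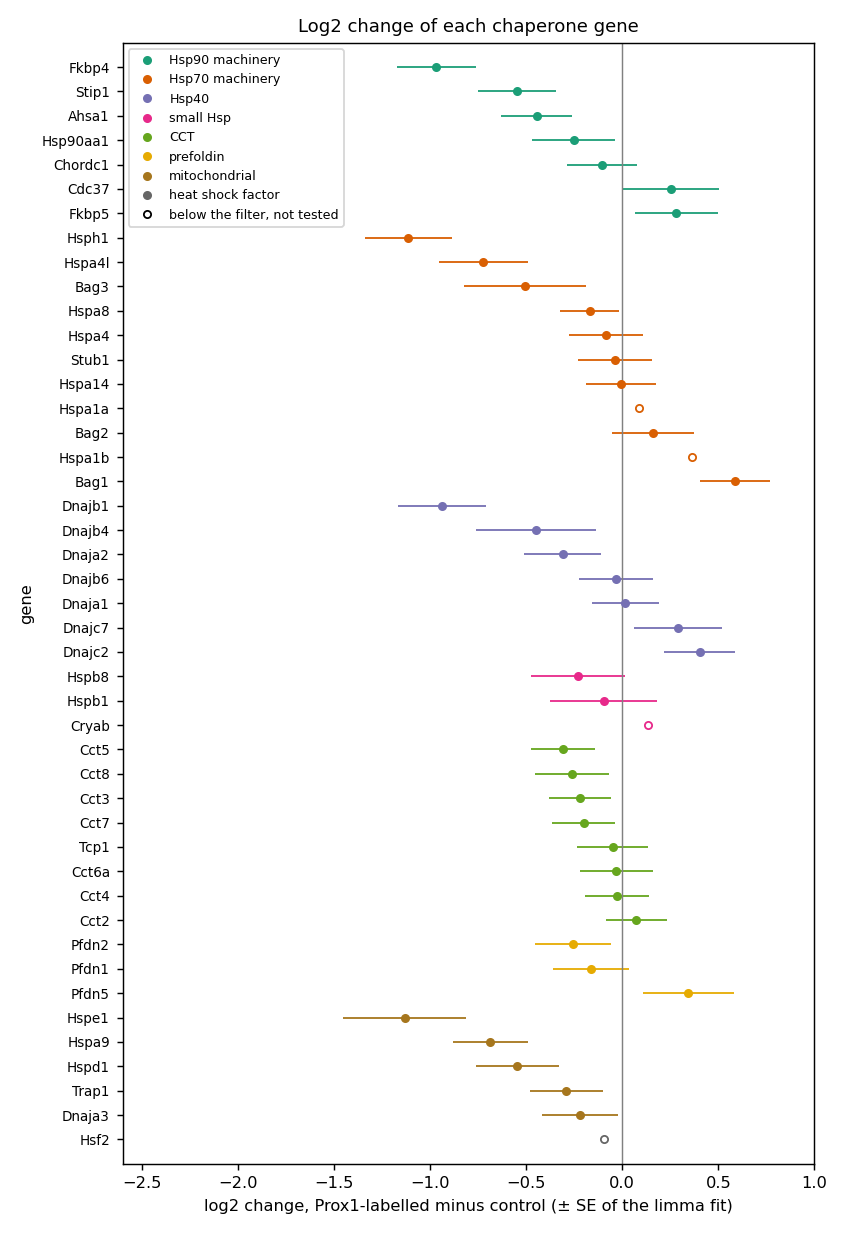
Log2 change of each chaperone gene, Prox1-labelled minus control, with the standard error of the limma fit (2 clones a group), coloured by class, and open circles without bars for the 4 genes below the filter. Hspe1 (-1.13), Hsph1 (-1.11), Fkbp4 (-0.97) and Dnajb1 (-0.94) lie farthest left. The CCT genes lie between -0.31 and 0.073, a range that also holds Trap1 (-0.29) and Dnaja3 (-0.22).

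CCT, the ring that folds actin and tubulin, showed small changes. Of its 8 subunits, 7 had a negative change (49.1% over all genes tested), the median was -0.13, and values ran from -0.31 to 0.073. Cct5 read 6176 and 6307 in the controls against 4727 and 5344 in the Prox1-labelled clones (-0.31 ± 0.17, limma adjusted p = 0.430). Cct3 read 6142 and 6146 against 5234 and 5316 (-0.22 ± 0.16, adjusted p = 0.585), and Cct8 read 2232 and 1749.9 against 1645 and 1640.4 (-0.26 ± 0.19, adjusted p = 0.586, or -0.089 without control clone 1). These 3 and Cct7 (-0.20 ± 0.16) lay below both controls in both Prox1-labelled clones (50% of the 8). That compares with 23.2% of genes tested and 25.5% of genes above the 75th percentile. In limma 0 of the 8 had an unadjusted p under 0.05. Cct2 lay above them, at 7531 and 7381 against 7966 and 7730.3.

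The 95% confidence interval of Cct5, the largest CCT change, ran from -0.69 to 0.07, and that of Cct4 (-0.027 ± 0.17) from -0.40 to 0.35. The dimmest of the 5 tested probe sets of Cct4 gave -0.84 ± 0.26, while the other 4 lay between -0.094 and 0.033. Tcp1 and Cct6a gave -0.050 and -0.032, with overlapping groups. The sign of single subunits depended on the probe set. The next brightest probe sets of Cct2 and Cct3 gave -0.32 and 0.15, opposite in sign to the brightest. Under quantile normalization Cct4, Cct6a and Tcp1 turned to 0.0081, 0.010 and 0.0086.

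Prefoldin, which delivers chains to CCT, was represented by 3 of its 4 listed subunit genes. Pfdn1 read 992 and 783 against 799 and 766 (-0.16 ± 0.20, limma adjusted p = 0.769), and Pfdn2 read 1249 and 1012 against 875 and 995 (-0.26 ± 0.20, adjusted p = 0.605). Pfdn5, also known as a Myc-binding protein, read 1576 and 2507 against 2403 and 2680.2 (0.34 ± 0.23, adjusted p = 0.549). For Pfdn5 control clone 1 was low and the other 3 clones were alike, and the change was 0.017 to 0.67 over the fits that leave out a clone.

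Small heat shock proteins, which hold unfolded proteins without ATP, were dim. Hspb1 read 232 and 346 in the controls against 344 and 198 in the Prox1-labelled clones, and Hspb8, the partner of Bag3, read 191 and 186 against 193 and 120.4. Both overlapped between groups (-0.097 ± 0.28 with limma adjusted p = 0.911, and -0.23 ± 0.25 with adjusted p = 0.728). Cryab read 91.2, 50.8, 107.5 and 58.4 in control clones 1 and 2 and Prox1-labelled clones 1 and 2 and was below the filter, as was the heat shock factor gene Hsf2 at 33.7, 20.4, 29.1 and 15.7. Hspb1 and Hspb8 were lower in Prox1-labelled clone 2 than in its partner, and the class median changed from -0.43 without Prox1-labelled clone 1 to 0.24 without clone 2.

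**Figure D4:**
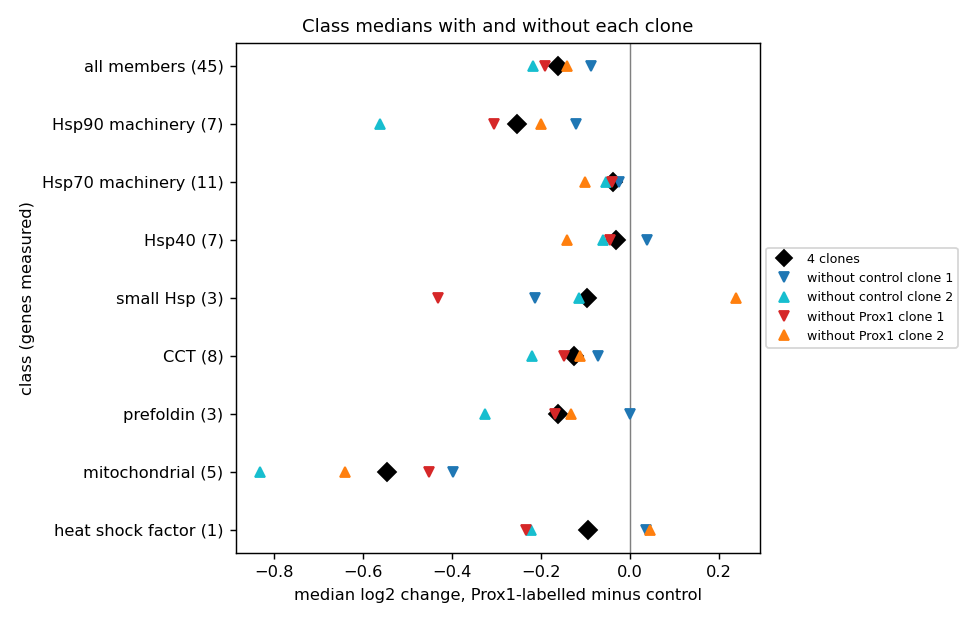
Median log2 change of each class (genes measured in brackets) with all 4 clones (diamonds) and with each clone left out (triangles). The mitochondrial median stays between -0.83 and -0.40, that of the Hsp90 machinery runs from -0.56 to -0.12, and the small heat shock proteins change sign.

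Of the 11 members known to be strongly induced by heat shock, 8 passed the filter on low values. With all 4 clones, all 8 were negative, where 49.1% of genes tested were. The 3 positive genes, Hspa1a, Hspa1b and Cryab, were dim and lay below the filter. Of the 8, Hsph1, Dnajb1 and Chordc1 stayed negative on leaving out each clone. Without control clone 1, Bag3, Dnajb4 and Hsp90aa1 turned to 0.038, 0.076 and 0.055. Without Prox1-labelled clone 2, Hspb1 and Hspb8 turned to 0.24 and 0.029. The median over the 11 was -0.23. Both Prox1-labelled clones lay below both controls in 2 (Hsph1 and Dnajb1, 18.2%, against 23.2% of genes tested) and above both in 1 (the dim Hspa1b). In this list 9 of 11 were higher in control clone 1 than in control clone 2, and the median difference between the control clones was -0.50 (clone 2 less clone 1), a larger difference than the median between the groups. Among other stress genes, whose link to Hsf1 was not tested, 7 of 12 measured were negative, with a median of -0.049. The list held 14 genes, and over all genes tested 49.1% were negative. Of the 12, 11 were tested, with 0 past the threshold in limma. At an unadjusted p under 0.05, 2 were lower and 1 was higher, where 6.13% and 8.22% of genes tested were. Hmox1, the heme oxygenase of the oxidative stress response, read 12127 and 4709 against 3015 and 2959 (-1.33 ± 0.36, limma adjusted p = 0.175), -0.65 on leaving out control clone 1 and -2.00 on leaving out control clone 2. Sqstm1, an autophagy receptor, gave -0.54 ± 0.21 (adjusted p = 0.288).

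Of 40 other cytosolic folding genes measured (44 listed), 23 were negative (49.1% over all genes tested), with a median of -0.029. Of these 40, 36 were tested, and 0 passed the threshold in limma. At an unadjusted p under 0.05, 3 were lower and 1 was higher, where 6.13% and 8.22% of all genes tested were. Dnajc5, a J protein of secretory vesicles, read 2489 and 2634 in the controls against 1416 and 1649 in the Prox1-labelled clones (-0.73 ± 0.18, limma adjusted p = 0.165). St13, the Hsp70-interacting protein Hip, read 2388 and 2353 against 1378 and 1847 (-0.56 ± 0.20, adjusted p = 0.262). In these 2 genes the control clones were nearly level. Chaperones of the endoplasmic reticulum were negative in 18 of 18 measured (49.1% over all genes tested), with a median of -0.67. Among them Pdia4, a disulfide isomerase, gave -1.69 ± 0.24 (adjusted p = 0.053) and Fkbp11 gave -1.03 ± 0.21 (adjusted p = 0.128). The difference between that list and the cytosolic and mitochondrial genes was not tested.

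Probe sets of the same gene were compared where at least 2 were tested, which was so for 22 members. In 17 all tested probe sets had the same sign and in 5 they did not, namely Hsp90aa1, Dnajb6, Cct2, Cct3 and Cct4. Hsph1, Hspe1, Hspa9 and Dnajb1, with changes of -0.69 or lower by the brightest probe set, were negative by each of their tested probe sets. The size differed more than the sign, with -1.13 and -0.56 for Hspe1. Of the 74 tested probe sets of members, 15 were lower and 1 higher at an unadjusted p under 0.05 in limma. Over all 11656 probe sets tested, 1693 were under 0.05 in either direction. The 15 are not separate genes: Hsph1, Dnajb1 and Hspa9 enter more than once. They also include Hspa4l, which passed the filter on low values through the control clones alone.

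**Figure D5:**
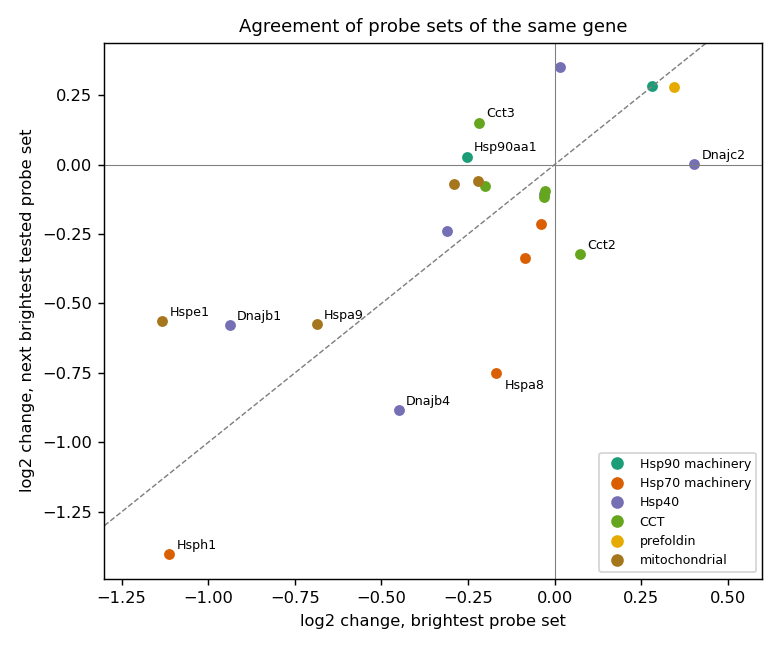
Log2 change by the brightest probe set (horizontal) against that by the next brightest tested probe set (vertical) for the 22 chaperone genes with at least 2 tested probe sets, coloured by class, with a dashed line of equality. Hsph1 is lowest on the vertical axis at -1.40, Hspa8 lies far below the line (-0.17 and -0.75), and Cct2, Cct3 and Hsp90aa1 change sign.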

How the data were processed

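Per the submitters' processing notes, the authors summarised the arrays with MAS5, and the deposited values are intensities on a linear scale, 1 column per clone, each scaled to a trimmed mean of 500 (2% trimmed at either end). No MAS5 version is named in these notes. Array medians ran from 163 to 179.7. Precision is limited by the 4 arrays: the smallest p of an exact permutation test in this design is 0.333.

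Groups and clone numbers came from the titles. The scale was log2(intensity + 47.2), with the pseudocount at the 25th percentile of the deposited values, which understates changes of dim probe sets. After leaving out 64 Affymetrix controls, probe sets above their array's median in at least 2 of 4 arrays were tested (11656 of 22690) in R 4.3.3 by limma 3.58.1, using lmFit and then eBayes with trend, 2-sided, with Benjamini-Hochberg adjustment over the probe sets tested and a threshold of 0.05. The error after ± is the fit's standard error. The annotation named 1 gene for 20380 probe sets, several for 691 and none for 1555, and all 45 members matched RefSeq symbols by Entrez identifier. Promoter letters are from RefSeq, GRCm38.p6. Members passing the filter numbered 41, and 39 lay above the median in all 4 arrays.

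The members and lists were chosen with earlier results of these data known. Clone values are given for the 3 members of each class with the smallest unadjusted p and for those changed at least 2-fold, and other members' clone values were added after they were seen. From each other list the 2 genes with the smallest p are named. The procedure was checked on simulated data. The titles number the clones and state no pairing. Over probe sets, the deviation of control clone 1 from its group mean correlated by -0.0091 with that of Prox1-labelled clone 1. With 2 clones a group, this value cannot show whether clones were handled in pairs.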

Additional observations from a re-analysis of the deposited data

How the results depend on the processing

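With 2 clones a group, the number of probe sets called moved most with which clones entered and with the clone number as a replicate block. Probe sets called numbered 12 with all clones, and 133 without control clone 1, 1150 without control clone 2, 42 without Prox1-labelled clone 1 and 67 without Prox1-labelled clone 2, each of 11656 tested, in fits where the lone clone is assumed to vary like the other group. Chaperone genes called ran from 0 to 12 in those fits: 12 without control clone 2 (Hsp90aa1, Stip1, Fkbp4, Hsph1, Hspa4l, Bag3, Dnajb1, Dnajb4, Hspa9, Hspd1 and Hspe1 lower, Pfdn5 higher), 1 without control clone 1 (Hsph1) and 0 without either Prox1-labelled clone. Of the genes named here, Hspa4l passed the filter on low values through the control clones alone. With the clone number as a replicate block, 110 probe sets and 1 chaperone gene, Hsph1, were called, and the titles state no pairing of the clones. The number of probe sets called was 4 with quantile normalization, 4 with median centring, 0 without the filter (2299 at an unadjusted p under 0.05), 7 with the robust variance model and 6 without probe sets whose suffix allows several transcripts. Under each of these 5, 0 chaperone genes were called. The causes of these shifts were not tested.

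Leaving out each clone moved the median over the chaperone genes between -0.22 and -0.089, and 28 to 34 genes were negative. Class medians on leaving out a clone ran from -0.22 to -0.073 for CCT, -0.10 to -0.025 for the Hsp70 machinery, -0.56 to -0.12 for the Hsp90 machinery, -0.83 to -0.40 for the mitochondrial genes and -0.43 to 0.24 for the small heat shock proteins. CCT stood at -0.071 with quantile normalization, -0.18 with median centring and -0.15 with a gene's probe sets averaged. With the next brightest probe set, an alternative chosen after seeing the data, CCT stood at -0.10, the Hsp70 machinery at -0.24 and the Hsp90 machinery at -0.10. The mean over probe sets gave -0.13 for the Hsp70 machinery and -0.30 for the mitochondrial genes. Without the multi-match suffixes the Hsp90 machinery stood at -0.10, and without a pseudocount Hsf2 stood at -0.30.

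Of 860 values of single genes under an alternative, 45 changed sign, in 23 genes. On leaving out a clone, the ranges that crossed 0 were Bag2 -0.025 to 0.34, Bag3 -1.05 to 0.038, Cct4 -0.058 to 0.0029, Cct6a -0.26 to 0.20, Cdc37 -0.12 to 0.63, Cryab -0.14 to 0.41, Dnaja1 -0.060 to 0.092, Dnajb4 -0.98 to 0.076, Dnajb6 -0.22 to 0.15, Hsf2 -0.23 to 0.044, Hsp90aa1 -0.56 to 0.055, Hspa14 -0.055 to 0.038, Hspa1a -0.25 to 0.43, Hspa4 -0.24 to 0.074, Hspb1 -0.43 to 0.24, Hspb8 -0.49 to 0.029, Prox1 -0.18 to 0.083, Stub1 -0.20 to 0.12 and Tcp1 -0.22 to 0.12. With quantile normalization Cct4 (0.0081), Cct6a (0.010), Dnajb6 (0.011) and Tcp1 (0.0086) turned positive, and with median centring Dnaja1 turned to -0.041. With the mean over probe sets Cct2 (-0.16), Dnajb6 (0.027) and Hspa14 (0.14) changed sign. With the next brightest probe set Cct2 (-0.32), Cct3 (0.15), Hsp90aa1 (0.028), Hspa14 (0.30), Hspa1b (-0.24) and Hspb8 (0.23) did, and without the multi-match suffixes Dnajc2 (-0.11), Hsp90aa1 (0.028) and Hspa1b (-0.24) did. Hsph1, Hspe1, Hspa9, Hspd1, Fkbp4, Dnajb1, Stip1, Ahsa1 and Bag1 kept their direction under every alternative that gave them a value. Their size varied: Fkbp4 was -0.10 without the multi-match suffixes, and Hspa9 was -0.30 with its probe sets averaged. Hspa4l was also negative throughout, but its brightest probe set passed the filter on low values through the control clones alone and so had to be. Its other probe set, which lay below the filter, gave -0.49.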
